A study of Homo sapiens with 2 samples.

Results

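Exosome formation, ESCRT and tetraspanin genes were examined in MDA-MB-231, a widely used human cell line of triple-negative breast cancer, in a series about macrophage-derived exosomes and an agent that the labels call CEL. The 44 genes were chosen by name, and each was found on 1 of the 60978 rows of the deposited expression table, of which 60624 carry a gene name. The table holds 1 library of cells incubated for 24 h with 1 µM CEL and 1 Control library of the same line incubated for 24 h, each from total RNA. No macrophage or exosome sample was analysed here, so the values are transcript levels of the cancer cells and not amounts of released vesicles. What the Control cells received in place of CEL is not stated in the labels. Each group has a single library, so variation among cultures is unknown, no test was possible, and "higher" and "lower" compare 1 library with 1 library. In such bulk RNA, fewer cells of a kind and less RNA per cell cannot be told apart.

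Exosomes form when the membrane of a late endosome buds inwards, which makes a multivesicular body, and they are released when that body fuses with the plasma membrane. The ESCRT complexes sort ubiquitinated cargo and cut the budding vesicles off. A parallel route runs through syndecans, their adaptor syntenin (SDCBP) and the ESCRT-associated protein ALIX (PDCD6IP). A further route runs through the lipid ceramide. Tetraspanins such as CD9, CD63 and CD81 organise the vesicle membrane and are the usual exosome markers. Some Rab GTPases and SNARE proteins carry the vesicle-filled body to the cell surface and fuse it there.

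The libraries held 17199398 reads in genes for CEL and 14821148 for Control, of which the 44 genes took 77500 (0.451%) and 67967 (0.459%). The labelled line was checked against its markers. The markers listed as high, VIM, CD44, KRT18 and EGFR, were at 350, 1024, 231 and 156 FPKM in CEL and at 399, 928, 145 and 123 FPKM in Control, where FPKM is a read count scaled for the length of the gene and for sequencing depth. Of the 5 markers listed as low, the hormone receptors ESR1 and PGR had 0 reads in either library and the epithelial cadherin CDH1 was under 1 FPKM in each. The other low markers were detected, ERBB2 at 48.8 FPKM in CEL and 71.7 FPKM in Control and EPCAM at 8.97 FPKM in CEL and 17.2 FPKM in Control. The 8 macrophage markers summed to 3.81 FPKM in CEL and 4.87 FPKM in Control, with CD163 and FCGR3A at 0. Of the 8, CSF1R and CD14 reached 1 FPKM and made up most of these sums. CSF1R was at 1.81 FPKM (47 reads) in CEL and 2.78 FPKM (62 reads) in Control. CD14 was at 1.36 FPKM (23 reads) in CEL and 1.92 FPKM (28 reads) in Control. The 3 fibroblast markers summed to 16.2 FPKM in CEL and 13.2 FPKM in Control, mostly PDGFRB at 12.8 FPKM in CEL and 11.4 FPKM in Control. The part of these markers in the results was not tested.

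Of the 44 genes, 43 reached 1 FPKM, and those did so in both libraries. Most of them were close in level between the libraries, and a few membrane, trafficking and lipid genes were lower in CEL. On the log2((CEL FPKM + 1)/(Control FPKM + 1)) scale, which understates the change of low genes, 7 of the 43 were at least 1.5-fold lower in CEL, 0 were at least 1.5-fold higher and 36 lay in between. The 7 lower genes were SDC4, RAB27B, CD82, SMPD3, CD9, FLOT2 and SYTL4. They made up 16.3% of the 43, against 10.2% of all 13745 named genes at 1 FPKM or more, and 8.97% of those genes were higher. With a trend of the fold with gene length subtracted, described below, 6 of the 43 members (14.0%) were lower, beside 13.4% of all genes, and 0 members were higher, beside 5.67%. The share of lower members was then near the background. Its gap from the background thus depends on the setting and was not tested. The count of lower genes is therefore not read as a result about the members as a group. Among genes at 10 FPKM or more, a filter chosen after the data were seen, 5 of 41 members (12.2%) were lower, against 6.49% of 8377 genes. With 0 higher members in either case, the same background for higher genes was 8.83%. These shares are descriptions of the 2 libraries and were not tested. The median log2 fold of the 43 was 0.078, beside 0.0022 over all 13745 genes, and 26 values were above 0 and 17 below.

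**Figure D1:**
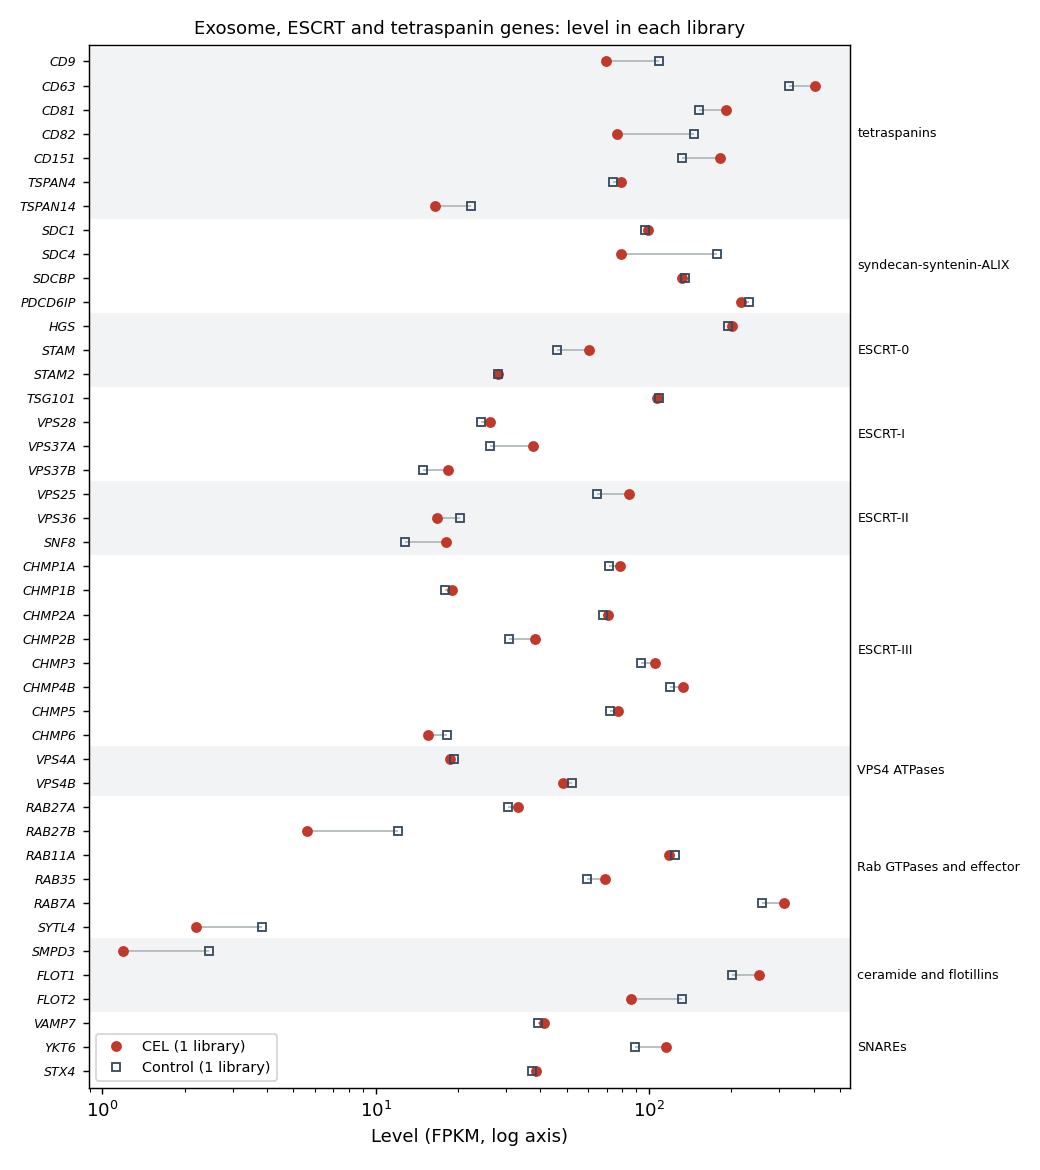
Level of each gene in the CEL library (filled circles) and the Control library (open squares), in FPKM on a log axis, grouped by role. CD63 is highest in both libraries at 406 FPKM in CEL and 324 FPKM in Control, SMPD3 is lowest at 1.19 FPKM in CEL and 2.46 FPKM in Control, and CHMP4A, at 0 in both, is not drawn.

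Levels spanned a wide range in both libraries. The highest was CD63 (406 FPKM in CEL and 324 FPKM in Control), followed by the late endosome GTPase RAB7A (312 FPKM in CEL and 258.7 FPKM in Control). FLOT1, PDCD6IP and HGS completed the 5 highest, although FLOT1 ranked 3 in CEL and 4 in Control and PDCD6IP the reverse. The median of the 43 was 71.1 FPKM in CEL and 68.1 FPKM in Control, above the medians over the 13745 genes, 14.7 FPKM in CEL and 14.9 FPKM in Control. SDC4 ranked 18 in CEL and 6 in Control among the 44 genes, and CD82 ranked 21 in CEL and 8 in Control. Ranks between genes depend on the deposited lengths. HGS, at rank 5 in CEL, had 3311 reads there over 953 bases, and SDC4 had 3545 reads over 2613 bases.

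Sequence before a RefSeq gene start is shown for 4 of the 7 lower genes, those with a match to a motif of NF-kappaB, AP-1 or NRF2, families that respond to inflammatory or oxidative signals. The sequences are the 250 bases before a gene start in RefSeq (GRCh38.p14), read 5′ to 3′ on the gene's strand, and the capitals mark the match. The stretch of SDC4 is chr20:45348425-45348674, minus strand, with a match to the kappaB consensus that starts 97 bases before the gene start, that of CD82 is chr11:44565413-44565662, plus strand, with the antioxidant response element, that of RAB27B is chr18:54828227-54828476, plus strand, before the downstream one of its 2 listed starts, and that of FLOT2 is chr17:28897734-28897983, minus strand, the last 2 with the AP-1 motif. The stretches of CD82 and RAB27B lie inside the genes as the deposited table bounds them, since these RefSeq starts are downstream of the deposited ones.
SDC4: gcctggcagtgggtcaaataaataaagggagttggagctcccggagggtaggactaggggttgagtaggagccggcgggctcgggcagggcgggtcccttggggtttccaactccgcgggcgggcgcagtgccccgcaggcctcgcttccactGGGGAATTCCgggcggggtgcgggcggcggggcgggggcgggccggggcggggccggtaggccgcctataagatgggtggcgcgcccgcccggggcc
CD82: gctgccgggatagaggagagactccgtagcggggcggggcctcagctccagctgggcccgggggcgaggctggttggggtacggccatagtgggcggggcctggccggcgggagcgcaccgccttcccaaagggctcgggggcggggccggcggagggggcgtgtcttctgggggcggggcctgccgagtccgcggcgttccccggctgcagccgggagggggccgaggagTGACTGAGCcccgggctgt
RAB27B: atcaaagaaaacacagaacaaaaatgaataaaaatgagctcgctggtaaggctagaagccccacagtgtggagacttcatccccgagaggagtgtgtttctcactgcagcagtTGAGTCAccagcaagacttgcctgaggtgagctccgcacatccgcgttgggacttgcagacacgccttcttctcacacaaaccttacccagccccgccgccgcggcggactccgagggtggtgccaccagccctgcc
FLOT2: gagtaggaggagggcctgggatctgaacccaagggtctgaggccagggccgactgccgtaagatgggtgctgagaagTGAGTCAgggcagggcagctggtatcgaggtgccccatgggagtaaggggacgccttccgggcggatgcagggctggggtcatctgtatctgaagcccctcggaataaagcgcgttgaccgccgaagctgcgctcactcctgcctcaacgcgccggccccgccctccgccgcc

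The same motifs were also matched in members that were not lower. Such stretches were listed for 35 of the 43 measured genes, in 62 windows, and for 6 of the 7 lower genes. Motifs were searched on both strands. The kappaB consensus was present in 10 of the 62 windows (16.1%), against 9.96% of all 35116 windows. By gene it was present in 8 of the 35, of which SDC4 was the lower one, against 11.8% of all 27305 listed genes. Shares by gene also depend on how many windows a gene has. The AP-1 motif TGANTCA was present in 6.45% of the windows, against 6.57% of all. It was matched in 4 of the 35 genes, CD63, RAB27A, RAB27B and FLOT2, against 8.06% of all listed genes. The antioxidant response element TGACNNNGC, which can overlap an AP-1 match, was present in 4.84% of the windows, against 10.9% of all. It was matched in 3 of the 35 genes, CD82, CHMP5 and STX4, against 13.2% of all listed genes. The E-box CACGTG was present in 9.68% of the windows, against 6.34% of all. It was matched in 6 of the 35 genes, against 7.73% of all listed genes, and in 0 of the 6 lower ones. The lysosomal CLEAR element, which contains an E-box, was matched in STX4 alone among the 35 genes, and in 0.374% of all listed genes and 0.308% of all windows. A match is a description of these letters and not a binding site.

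The tetraspanins divided. CD9 (ENSG00000010278, GRCh38 chromosome 12, 6199715 to 6238271), an exosome marker that also acts in cell adhesion and fusion, was at 69.7 FPKM (1274 reads) in CEL and 109 FPKM (1711 reads) in Control. CD82 (ENSG00000085117, chromosome 11, 44564427 to 44620358), known as a suppressor of metastasis, was at 76.6 FPKM (1079 reads) in CEL and 146 FPKM (1773 reads) in Control. Both were thus lower in CEL, CD9 by 1.56-fold (1.45 to 1.68) and CD82 by 1.91-fold (1.77 to 2.06). Intervals in this text are exact conditional binomial 95% intervals from the read counts, and they cover counting error only. CD63 (chromosome 12, 55725323 to 55729707), which cycles through late endosomes, was at 406 FPKM in CEL and 324 FPKM in Control, a ratio of 1.25 (1.20 to 1.30). CD81 (chromosome 11, 2376177 to 2397397), a partner of integrins and immunoglobulin-like proteins, was at 191 FPKM in CEL and 152 FPKM in Control, a ratio of 1.25 (1.19 to 1.32). The laminin-binding integrin partner CD151 was at 183 FPKM in CEL and 132 FPKM in Control, a ratio of 1.39 (1.31 to 1.47). All 3 were higher in CEL beyond counting error, 0 of the 3 reached 1.5-fold, and that of CD63 was not kept with the length trend subtracted.

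The fold varied with the deposited gene length across the transcriptome, and several tetraspanins have short deposited lengths. When the running median of the log2 fold over 8170 protein-coding genes of like length was subtracted, the log2 fold of CD63 (772 bases) was −0.0025, against 0.32 before, and those of CD81 and CD151 were 0.18 and 0.28, against 0.33 and 0.47. CD9 and CD82 were further below 0, at −0.78 and −1.18, against −0.63 and −0.92 before. TSPAN4, which lies beside CD151 on chromosome 11, was at 78.9 FPKM in CEL and 73.9 FPKM in Control. TSPAN14, a partner of the protease ADAM10, was at 16.5 FPKM in CEL and 22.3 FPKM in Control, 1.36-fold lower (1.26 to 1.46). The 7 tetraspanins summed to 1021 FPKM in CEL and 959 FPKM in Control, so the sum was near equal while its make-up was not. CD63 made up 39.7% of the sum in CEL and 33.8% in Control, CD9 6.83% in CEL and 11.3% in Control, and CD82 7.50% in CEL and 15.2% in Control. Of CD9, CD63 and CD81 alone, CD9 made up 10.5% in CEL and 18.6% in Control.

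**Figure D2:**
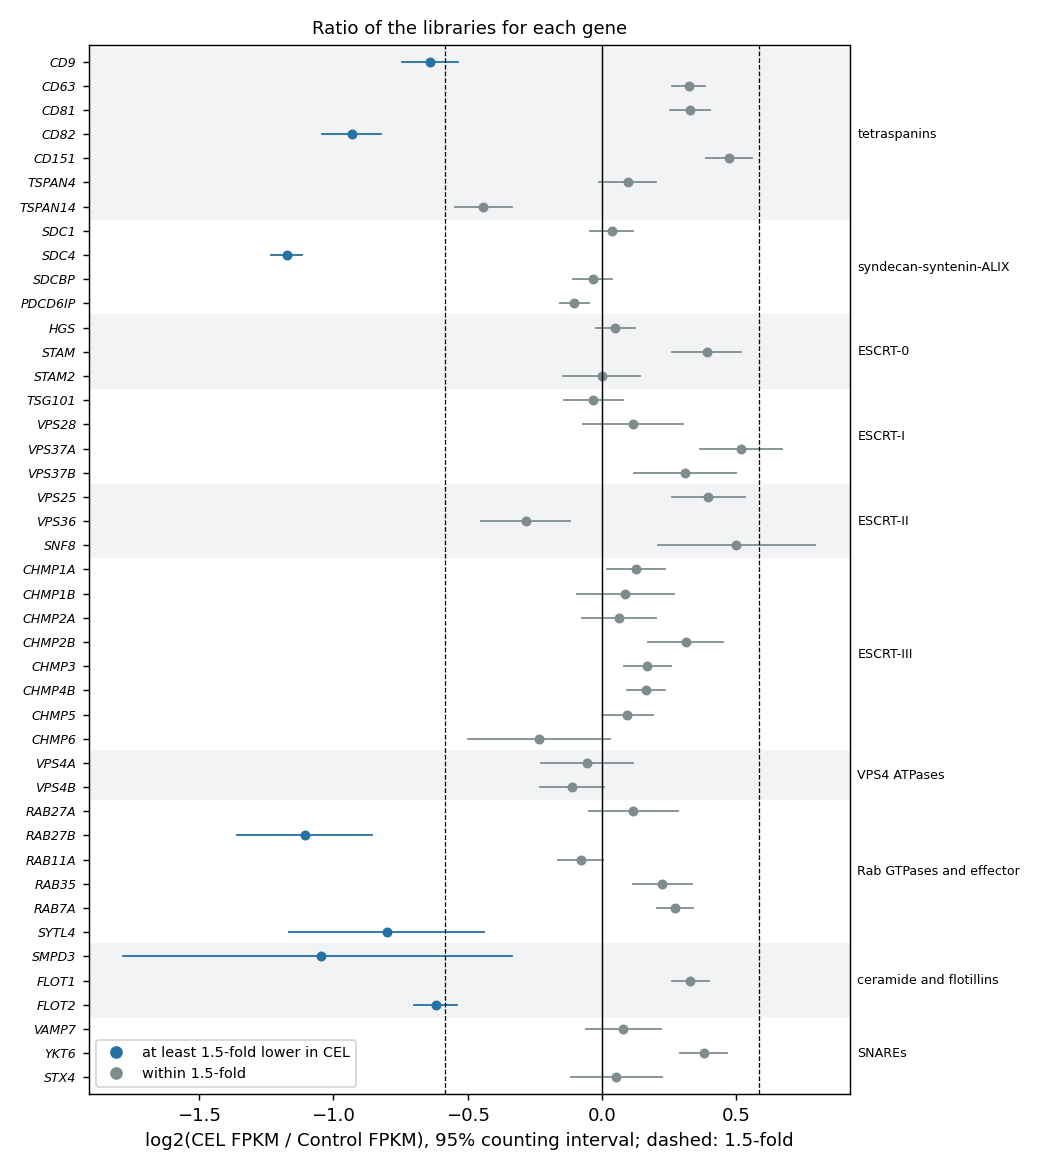
Log2 ratio of FPKM, CEL over Control, for the 43 measured genes by role, with 95% counting intervals and dashed lines at 1.5-fold. The 7 genes in blue lie left of the lower line, SDC4 at a ratio of 0.443, and 0 genes lie right of the upper line.

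In the syndecan route SDC4 was lower, and SDC1 and the adaptors were within 1.5-fold. SDC4 (ENSG00000124145, chromosome 20, 45325288 to 45348424), a heparan sulfate proteoglycan of focal adhesions whose kappaB match is shown above, was at 78.9 FPKM (3545 reads) in CEL and 178 FPKM (6892 reads) in Control, 2.26-fold lower (2.17 to 2.35). With the pseudocount of 1 FPKM it was the 1 gene of the 43 past 2-fold, a mark passed downwards by 3.24% of the 13745 genes and upwards by 2.7%. RAB27B also passed it with a pseudocount of 0.1 FPKM and under the 3 other scalings, at log2 folds between −1.09 and −1.01, and CD82 did with the length trend subtracted, at −1.18. SDC1, another syndecan, was at 98.9 FPKM (2771 reads) in CEL and 96.4 FPKM (2328 reads) in Control. In FPKM it was thus the higher of this pair in CEL and the lower in Control. By reads SDC1 was below SDC4 in both libraries, so the order in CEL depends on the deposited lengths, 1629 bases for SDC1 and 2613 for SDC4. SDCBP, the adaptor syntenin that binds the syndecan tail, was at 132 FPKM in CEL and 135 FPKM in Control, a ratio of 0.977 (0.928 to 1.03). PDCD6IP (chromosome 3, 33798571 to 33869707), which encodes ALIX and recruits ESCRT-III, was at 217 FPKM in CEL and 233 FPKM in Control, a ratio of 0.931 (0.897 to 0.967).

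The ESCRT genes were close in level as a group. Of 21 listed genes of ESCRT-0 to ESCRT-III and the VPS4 ATPases, 20 were measured and 0 passed 1.5-fold in either direction. Over all genes 10.2% were lower and 8.97% higher, and the gap between these shares and 0 of 20 genes was not tested. Their log2 folds ran between −0.27 (VPS36) and 0.50 (VPS37A), with a median of 0.10 and 14 values above 0. The 7 lower genes were among the 23 others, all measured, and no difference between these sets was tested.

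ESCRT-0 captures ubiquitinated cargo. HGS, its HRS subunit, was at 202 FPKM in CEL and 195 FPKM in Control, STAM at 60.3 FPKM in CEL and 46.0 FPKM in Control, and STAM2 at 28.0 FPKM in both. Opposite-strand genes overlap 23.5% of the exonic bases of HGS. STAM had a ratio of 1.31 (1.20 to 1.43). In ESCRT-I, which bridges to the later complexes, TSG101 (chromosome 11, 18468336 to 18526951), an exosome marker and ubiquitin binder, was at 107 FPKM in CEL and 109 FPKM in Control, a ratio of 0.978 (0.907 to 1.06). The deposited length of TSG101 is short (800 bases), and its log2 fold was −0.32 with the length trend subtracted, against −0.032 before. VPS37A was at 37.6 FPKM in CEL and 26.3 FPKM in Control, a ratio of 1.43 (1.29 to 1.59), the member nearest to the upper 1.5-fold mark. On the other strand CNOT7, which overlaps VPS37A, was at 91.3 FPKM in CEL and 71.8 FPKM in Control, and its part in the VPS37A value was not tested. VPS37B was at 18.4 FPKM in CEL and 14.9 FPKM in Control and VPS28 at 26.2 FPKM in CEL and 24.2 FPKM in Control.

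ESCRT-II, which nucleates ESCRT-III, was uneven among its 3 subunits. VPS25 was at 84.7 FPKM in CEL and 64.4 FPKM in Control, and SNF8 at 18.1 FPKM in CEL and 12.8 FPKM in Control, ratios of 1.32 (1.20 to 1.45) and 1.41 (1.16 to 1.73). VPS36 was at 16.7 FPKM in CEL and 20.4 FPKM in Control, a ratio of 0.821 (0.733 to 0.921). With the length trend subtracted VPS25 was at a log2 fold of 0.057, against 0.39 before.

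ESCRT-III forms the filament that cuts the vesicle neck. Of its 9 listed genes 8 were measured, with log2 folds between −0.22 and 0.30 and 7 of 8 above 0, of which CHMP2A was at −0.26 with the length trend subtracted. CHMP4B, the main filament subunit, was highest at 134 FPKM in CEL and 119 FPKM in Control, a ratio of 1.12 (1.07 to 1.18). CHMP2B was at 38.2 FPKM in CEL and 30.8 FPKM in Control, a ratio of 1.24 (1.13 to 1.37), and CHMP6, which links to ESCRT-II, at 15.5 FPKM in CEL and 18.2 FPKM in Control, a ratio of 0.851 (0.708 to 1.02). CHMP1A, CHMP1B, CHMP2A, CHMP3 and CHMP5 ran between 19.0 and 105 FPKM in CEL and between 17.9 and 93.8 FPKM in Control, with ratios between 1.04 and 1.12. CHMP4A was listed at 0 in both libraries. A count of 0 allows up to 3 reads, or 0.240 FPKM in CEL and 0.278 FPKM in Control for this gene. In GENCODE 29, 68.8% of its exonic bases are shared with same-strand genes that are listed at 0 as well, and the part of this overlap in the 0 was not tested. The VPS4 ATPases, which take the filament apart, were within counting error of equal levels, VPS4A at 18.7 FPKM in CEL and 19.4 FPKM in Control and VPS4B at 48.5 FPKM in CEL and 52.4 FPKM in Control.

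Among the Rab GTPases RAB27B was the one past 1.5-fold. RAB27B (ENSG00000041353, chromosome 18, 54717860 to 54895516), whose AP-1 match is shown above, was at 5.61 FPKM (204 reads) in CEL and 12.1 FPKM (378 reads) in Control, 2.15-fold lower (1.81 to 2.56). Its paralog RAB27A was at 33.1 FPKM (677 reads) in CEL and 30.5 FPKM (538 reads) in Control, a ratio of 1.08 (0.967 to 1.22). SYTL4 (ENSG00000102362, chromosome X, 100674491 to 100732123), the granuphilin that binds RAB27 proteins, was at 2.20 FPKM (108 reads) in CEL and 3.84 FPKM (162 reads) in Control, 1.74-fold lower (1.36 to 2.24). It was only just past the 1.5-fold mark, at a log2 fold of −0.59, and TSPAN14 was the nearest gene that did not reach it, at −0.42. SRPX2 on the other strand overlaps SYTL4, 17.5% of whose exonic bases are shared with other genes, and was at 2.37 FPKM in CEL and 1.35 FPKM in Control. The recycling endosome GTPase RAB11A was at 118 FPKM in CEL and 125 FPKM in Control. RAB35, which acts at the plasma membrane, was at 69.1 FPKM in CEL and 59.2 FPKM in Control, and RAB7A had a ratio of 1.21 (1.15 to 1.26). The log2 fold of RAB7A (828 bases) was 0.024 with the length trend subtracted, against 0.27 before.

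The lipid and raft genes had the lowest level and another split pair. SMPD3 (ENSG00000103056, chromosome 16, 68358327 to 68448508), the neutral sphingomyelinase that makes ceramide, was at 1.19 FPKM (27 reads) in CEL and 2.46 FPKM (48 reads) in Control, 2.06-fold lower (1.26 to 3.44). Its interval is the widest of the 43, and with a pseudocount of 5 FPKM neither SMPD3 nor SYTL4 was past 1.5-fold. PRMT7, which overlaps SMPD3 on the other strand, was at 19.9 FPKM in CEL and 24.6 FPKM in Control. FLOT2 (ENSG00000132589, chromosome 17, 28879335 to 28897733), a scaffold of membrane rafts whose AP-1 match is shown above, was at 85.9 FPKM (2165 reads) in CEL and 132 FPKM (2866 reads) in Control, 1.54-fold lower (1.45 to 1.63). Its partner FLOT1 was at 253 FPKM (4054 reads) in CEL and 201 FPKM (2781 reads) in Control, a ratio of 1.26 (1.20 to 1.32). The log2 fold of FLOT1 (931 bases) was 0.14 with the length trend subtracted, against 0.33 before. FLOT1 lies in the histocompatibility complex, for which the table also lists alternate sequences, so its reads may have been split and its level is uncertain.

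The SNAREs, which fuse membranes, were all within 1.5-fold. YKT6 was at 115 FPKM in CEL and 88.5 FPKM in Control, a ratio of 1.30 (1.22 to 1.38). VAMP7 lies in a pseudoautosomal region, where reads may be split between chromosomes, and was at 41.4 FPKM in CEL and 39.1 FPKM in Control. The plasma membrane syntaxin STX4 was at 38.6 FPKM in CEL and 37.2 FPKM in Control.

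Ratios between related genes within a library do not depend on how the libraries are scaled, and they put the values above side by side. The 11 pairs were chosen after the levels were seen. RAB27A exceeded RAB27B by 5.90-fold in CEL and by 2.53-fold in Control, so the balance was 2.33 times as large in CEL (1.89 to 2.88). SDC1 over SDC4 was 1.25 in CEL and 0.542 in Control, 2.31 times as large (2.16 to 2.48). FLOT1 over FLOT2 was 2.94 in CEL and 1.53 in Control, 1.93 times as large (1.79 to 2.08). CD81 over CD82 was 2.49 in CEL and 1.04 in Control, 2.39 times as large (2.18 to 2.63). CD63 over CD9 was 5.82 in CEL and 2.98 in Control, 1.95 times as large (1.79 to 2.12), and CD81 over CD9 was 2.73 in CEL and 1.398 in Control, 1.96 times as large (1.79 to 2.14). Each of these 6 pairs holds a gene already named as lower and none of the 5 ESCRT pairs does, so the choice of pairs fixes the larger differences, which restate those of the single genes. In the ESCRT pairs VPS4A over VPS4B was 0.385 in CEL and 0.370 in Control, 1.04 times as large (0.899 to 1.20), and CHMP1A over CHMP1B was 4.11 in CEL and 3.996 in Control (1.03 times, 0.888 to 1.19). STAM over STAM2 was 1.31 times as large (1.15 to 1.499), VPS37A over VPS37B 1.16 times (0.976 to 1.37) and CHMP2A over CHMP2B 0.841 times (0.734 to 0.965). Where the genes of a pair differ in length, a length trend between libraries can still enter these ratios. Which gene of a pair is the higher within a library also depends on the deposited lengths.

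**Figure D3:**
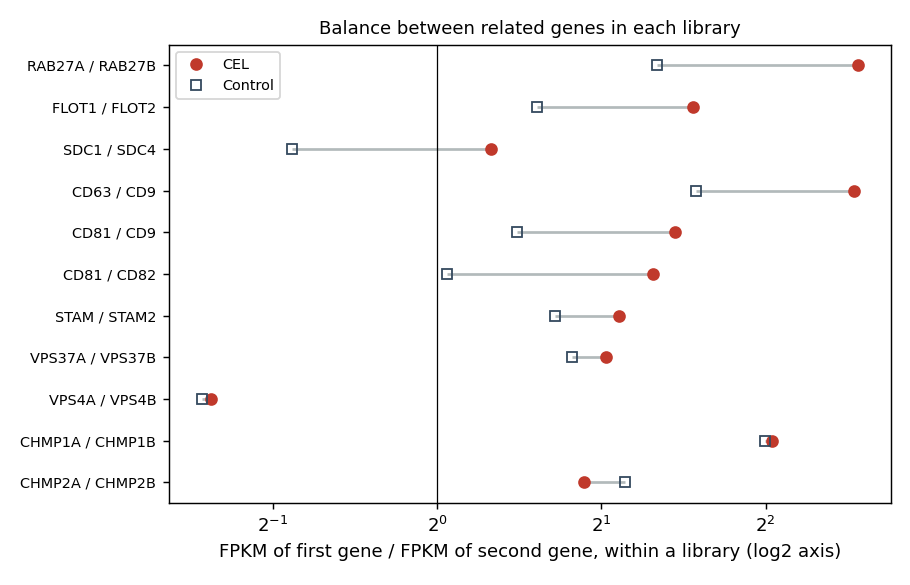
Ratio of FPKM between related genes within the CEL library (filled circles) and within the Control library (open squares), on a log2 axis. RAB27A over RAB27B is 5.90 in CEL and 2.53 in Control, and SDC1 over SDC4 lies on opposite sides of 1, while VPS4A over VPS4B is 0.385 in CEL and 0.370 in Control.

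The 7 lower genes had both short and long deposited lengths. They had lengths between 819 bases (CD82) and 2848 bases (SYTL4), beside a median of 1311.5 bases over the 44 genes. With the length trend subtracted, 6 of the 7 were still at least 1.5-fold lower, and SYTL4 was at a log2 fold of −0.53.

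**Figure D4:**
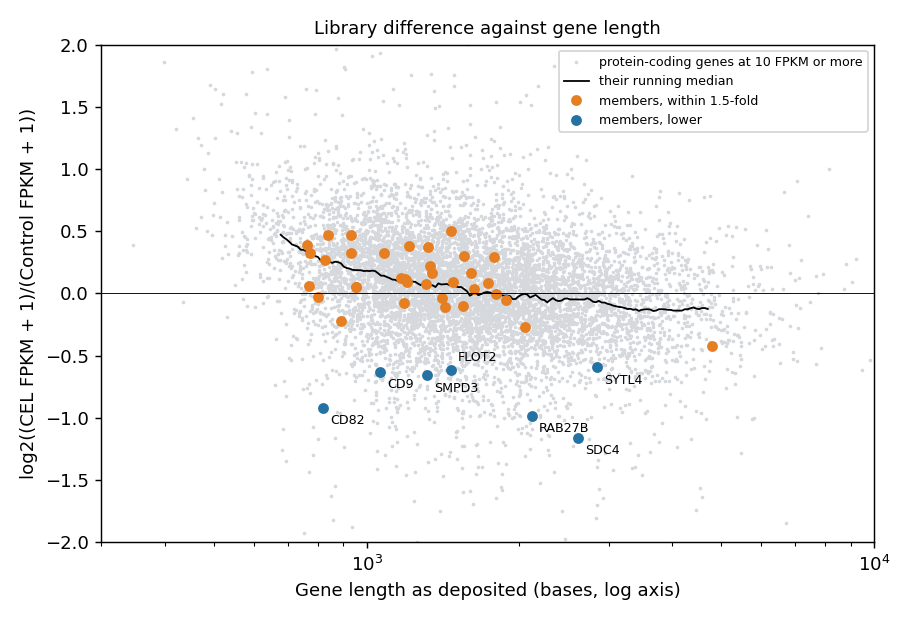
Log2((CEL FPKM + 1)/(Control FPKM + 1)) against deposited gene length on a log axis, for protein-coding genes at 10 FPKM or more (grey), their running median (line) and the 43 measured members (orange, and blue where lower). The axis leaves out genes past 2 in size, and the 7 lower members lie below the running median, with CD82 at −1.18 and SDC4 at −1.12 relative to it.

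Other genes of the pathway, 110 in 8 lists, were set beside the members. Of these, 97 were measured, 12 (12.4%) were at least 1.5-fold lower and 2 (2.06%) higher, beside 10.2% lower and 8.97% higher over all 13745 genes, so the lower share was near the background. The lists are short and were chosen with earlier results known, and their counts are given as descriptions beside those shares. Values in these lists are without subtraction of the length trend. The counts include genes near 1 FPKM and rest on the pseudocount of 1 FPKM. Of the proteins that tetraspanins bind, 4 of 9 (44.4%) were lower and 0 higher, with a median log2 fold of −0.43. The laminin receptor chain ITGB4 was at 56.2 FPKM in CEL and 133 FPKM in Control, and ITGB1, the shared chain of many integrins, at 1166 FPKM in CEL and 1817 FPKM in Control. PTGFRN, an immunoglobulin-like partner of CD9 and CD81, was at 10.8 FPKM in CEL and 20.1 FPKM in Control, and the adhesion protein EPCAM at 8.97 FPKM in CEL and 17.2 FPKM in Control.

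In the syndecan list 3 of 12 genes (25%) were lower and 0 higher. These were the phospholipases D, which act with syntenin in vesicle budding, and a further syndecan. PLD2 was at 15.8 FPKM in CEL and 33.6 FPKM in Control, PLD1 at 14.0 FPKM in CEL and 26.1 FPKM in Control, and SDC3 at 32.2 FPKM in CEL and 51.0 FPKM in Control. HPSE, the heparanase that trims syndecans, was at 6.89 FPKM in CEL and 8.77 FPKM in Control. Of 18 other Rab and tethering genes 3 (16.7%) were lower and 1 (5.56%) higher. SYTL1, a relative of SYTL4, was at 7.10 FPKM in CEL and 17.8 FPKM in Control, and UNC13D, the RAB27 effector Munc13-4, at 188 FPKM in CEL and 314 FPKM in Control. RAB3D was at 1.33 FPKM (59 reads) in CEL and 2.98 FPKM (114 reads) in Control. RAB9A, of transport between late endosome and Golgi, was the higher one at 22.0 FPKM in CEL and 14.0 FPKM in Control.

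Of 11 other tetraspanins measured, 2 (18.2%) were lower and 1 (9.09%) higher. TSPAN15 was at 13.1 FPKM in CEL and 30.7 FPKM in Control, and TSPAN13 at 1.48 FPKM (31 reads) in CEL and 3.37 FPKM (61 reads) in Control. TSPAN5, which like TSPAN15 binds ADAM10, was the higher one at 65.5 FPKM in CEL and 43.2 FPKM in Control, and its log2 fold of 0.59 was just past the mark. TSPAN33 was at 4.28 FPKM in CEL and 6.27 FPKM in Control. In the other 4 lists 0 genes passed 1.5-fold. The 16 other ESCRT genes had a median log2 fold of 0.036, with VPS37D at 1.15 FPKM (29 reads) in CEL and 2.17 FPKM (47 reads) in Control. MVB12B, PDCD6 and ARRDC1 were at log2 folds of −0.43, −0.38 and −0.32. The 14 other SNAREs had a median of −0.090, with STX3 at 56.3 FPKM in CEL and 40.0 FPKM in Control, and STX1A, VTI1B and STX7 at log2 folds of −0.36, −0.36 and −0.35. The 8 ceramide genes had a median of −0.045, with SMPD2, another neutral sphingomyelinase, at 9.54 FPKM in CEL and 7.14 FPKM in Control, and SMPD1, CERT1 and SGMS1 at log2 folds of −0.30, −0.24 and −0.16. The 9 genes of fusion with lysosomes had a median of 0.11, with VPS41 and VPS39, of the HOPS tether, at log2 folds of −0.48 and −0.37, and VPS16 at 0.26.

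**Figure D5:**
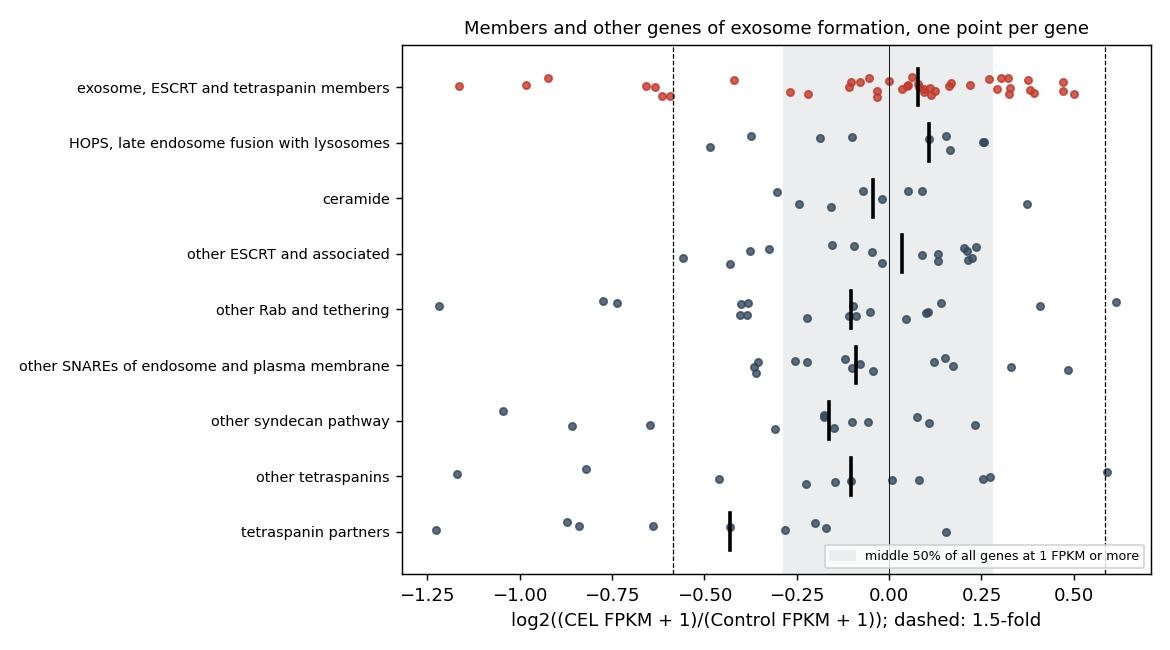
Log2((CEL FPKM + 1)/(Control FPKM + 1)) of the 43 measured members (red) and of the measured genes in 8 other lists (dark), 1 point per gene, with a bar at each median, dashed lines at 1.5-fold and a grey band between the quartiles of all genes. The tetraspanin partners have the lowest median, −0.43, and the ESCRT, SNARE, ceramide and HOPS lists have 0 genes past the dashed lines.

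Counting limits differ among the genes. Pseudogenes named after 9 of the genes, 13 in all, were at 0.354 FPKM or less in each library. More than 10% of the exonic bases were shared with another gene for 11 of the 44 genes, among the lower ones SYTL4 and SMPD3. SDC4, CD9 and FLOT2 shared no exonic bases with other genes in GENCODE 29.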

How the data were processed

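Total RNA was extracted with TRIzol and libraries were prepared with a NEBNext Ultra kit, per the labels' protocols. HTSeq (version 0.5.4) and GRCh38 are named in the submitters' processing notes. Aligner, annotation release and strand setting: not given in the sources used here. Antisense partners are therefore uncertain. The deposited values are FPKM, computed by the authors with 1 length per gene, and they were used as they stand. Whether that length matches the transcripts of these cells was not tested. Comparisons of level between genes, and the length trend, depend on it.

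Read counts were recovered by finding whole numbers that give both FPKM of a gene at 1 length, the printed one or up to 1 base more, within a relative tolerance of 1e-09, and this worked for 24783 of 24783 detected genes. Genes without a name (354, with 0.265% of CEL and 0.298% of Control reads) were left out. A gene was measured from 1 FPKM in at least 1 library, and folds used a pseudocount of 1 FPKM and a mark of 1.5-fold. With 1 library per group no p-value was computed. The length trend is a running median over 501 genes. Biotypes, strands and exon overlaps come from GENCODE 29. The software was scipy 1.17.1, pandas 2.3.3, matplotlib 3.10.9 and numpy 2.4.6 under Python 3.11.15. Recovery of reads, the counting intervals and the fold calls were tested on simulated data, and the other steps were not. The members and lists were chosen with earlier results of these data known. Full values are given for each member past 1.5-fold, the highest of each role group, and CD9, CD63, CD81, TSG101, PDCD6IP and SDCBP. In each pathway list up to 4 genes are named, by size of the log2 fold. Alternatives were other pseudocounts, filters, scalings and removal of the length trend.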

Additional observations from a re-analysis of the deposited data

How the results depend on the processing

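Under 9 alternatives (8 planned, and a filter at 10 FPKM chosen after seeing the data) the count of members at least 1.5-fold higher in CEL was 0 in each, and the count of lower ones was between 5 and 7. The shares over all genes changed with the setting. With a pseudocount of 5 FPKM, 11.6% of the members were lower, beside 3.56% of all genes, and 4.39% of all genes were higher. A pseudocount of 0.1 FPKM gave 16.3% of the members lower, beside 14.1% of all genes, and 11.5% of all genes higher. A near-constant count of members is thus not a constant gap from the background. CD9, CD82, FLOT2, RAB27B and SDC4 were lower in every setting. SMPD3 and SYTL4 were within 1.5-fold with a pseudocount of 5 FPKM and were removed by filters at 5 and 10 FPKM, and SYTL4 was within 1.5-fold without the length trend. The median log2 fold of the members lay between −0.0025, without the length trend, and 0.082. Of 383 values of single members under the alternatives, 16 moved by more than the counting interval allows, 15 of them with removal of the length trend and 1, RAB27B at −0.69, with a pseudocount of 5 FPKM. Of the 43 members 36 kept 1 sign in all settings. CD63, TSPAN4, SDC1, HGS, CHMP2A, VAMP7 and STX4 changed sign in at least 1 setting, and 0 of these 7 were past 1.5-fold in any setting. No paired analysis was possible because each group has 1 library, and for the same reason no library could be left out. Counting error is widest for SMPD3, with 27 reads in CEL and 48 in Control, and 3 reads on a gene of 1 kilobase are 0.174 FPKM in CEL and 0.202 FPKM in Control.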
